A study of Rattus norvegicus with 10 samples.

Results

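The comparison described here set 3 clones of HSC-2, a Wistar rat line of hepatic stellate cells, each transfected to overexpress the microRNA rno-miR-146a, against the same line without any transfection. The arrays were chosen by their labels alone: clones S1, S4 and S5 gave 6 arrays and the untransfected control gave 2, so that 8 of the 10 arrays of the study enter it. RNA was taken from each line at 2 passages, 42 and 43. The titles of the untransfected arrays call them replicate 2 of HSC-2, and no replicate 1 was analysed here. HSC-2 was grown in high-glucose DMEM with 10% fetal bovine serum and antibiotics, conditions that all lines shared. Each miR-146a line is 1 clone, and the labels used here name neither the vector nor its promoter. The untransfected cells had not been through transfection or selection of a clone, so those steps and the microRNA cannot be told apart in this comparison. A further line with a scrambled sequence was left out of it, and its values are printed only where they bear on a gene named here. Whether the passages were separate cultures is not stated in the labels, so p-values cover only the spread between these arrays, and that spread can be technical.

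Hepatic stellate cells lie between hepatocytes and sinusoidal endothelium, store retinoids at rest and become contractile, matrix-producing cells after liver injury. miR-146a is induced by NF-kB and represses adaptors of Toll-like and interleukin-1 receptors, which closes a feedback loop on inflammatory signalling. A microRNA pairs with its targets mainly through the seed near its 5′ end and lowers the level or the translation of the messenger RNA. The mature sequence that the clones are labelled as overexpressing is printed with that of its relative rno-miR-146b-5p, because both carry the same 7-base seed (bases 2 to 8, in capitals). Both are RefSeq sequences of the rat assembly GRCr8, written 5′ to 3′. The first lies on the minus strand at chr10:28350053-28350074 and the second on the plus strand at chr1:255144874-255144897. Mature miR-146a itself was not analysed here, so its overexpression rests on the labels.
rno-miR-146a-5p: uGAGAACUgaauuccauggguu
rno-miR-146b-5p: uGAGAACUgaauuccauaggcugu

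Before the results, the untransfected arrays stood apart in their array controls. The poly-A spike-in probe sets (AFFX controls for dap, lys, phe and thr) detect bacterial transcripts added to the RNA before labelling. The median over their 24 probe sets was 7.98, 8.20, 8.36, 8.23, 7.93 and 8.71 on the clone arrays, against 10.42 and 9.81 on the untransfected arrays, on the scale of log2 intensity used throughout. That is a difference of -1.88, or 3.69-fold lower on the clone arrays, with every clone array below both untransfected arrays in all 24 probe sets (two-sided exact permutation test, p = 0.0357, the smallest that 6 against 2 arrays allow). The scrambled arrays stood at 8.17 and 8.89. The probe set for 5S ribosomal RNA lay between 6.48 and 7.15 on the clone arrays, against 9.56 and 8.98 on the untransfected arrays, a difference of -2.38. The 18 hybridisation controls, which are added after labelling, differed by -0.02. The 3′ minus 5′ difference of beta-actin, a measure of how complete the labelled RNA was, lay between 0.47 and 0.64 on the clone arrays, against 0.89 and 0.85 on the untransfected arrays. That of GAPDH lay between 0.03 and 0.10 on the clone arrays, against 0.21 and 0.32 on the untransfected arrays, and that of hexokinase between 0.92 and 1.13, against 1.01 and 1.04. Spike-ins, ribosomal signal and the 3′ minus 5′ differences of beta-actin and GAPDH thus moved with the comparison, that of hexokinase did not separate the groups, and their part in the gene results was not tested.

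**Figure D1:**
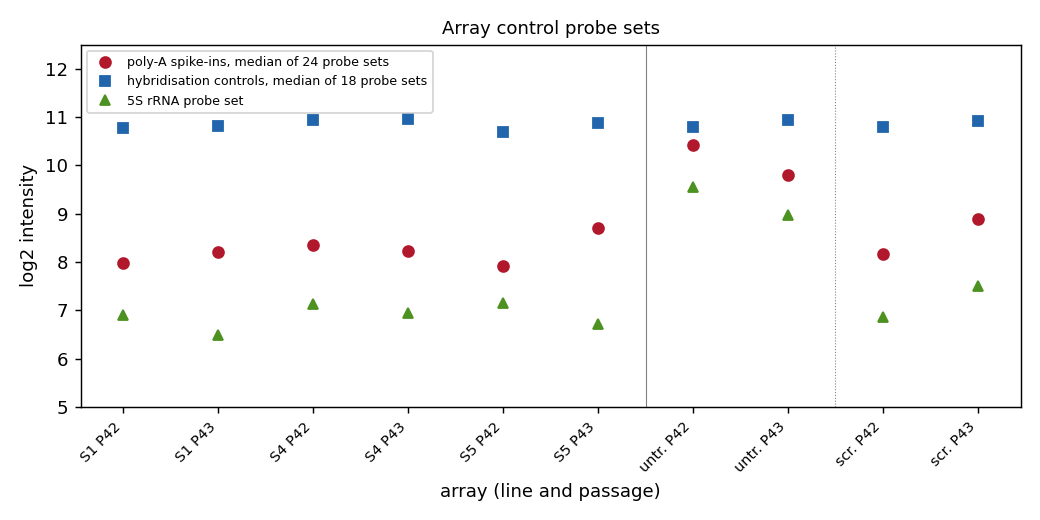
Log2 intensity of the array controls on each array (line and passage), with the clone arrays left of the solid line, the untransfected arrays right of it and the scrambled arrays right of the dotted line; circles are medians of 24 poly-A spike-in probe sets, squares medians of 18 hybridisation controls and triangles the 5S rRNA probe set. The untransfected arrays lie at 10.42 and 9.81 for the spike-ins, above every other array, while the hybridisation controls lie level.

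Array medians lay between 97.74 and 103.74 intensity units. Over the probe sets tested, pairs of arrays from different clones correlated at 0.987 to 0.997 and clone with untransfected arrays at 0.964 to 0.980, while the untransfected pair itself correlated at 0.984. Probe sets at the lowest deposited value of 20 (4.32 on the log2 scale) have no order below that floor, so a fold change against the floor is a lower bound. Of 16 defining markers of stellate cells tested, 0 rose and 2 fell, with a median of -0.12 and 12 values below 0. Line means called 0 of them, and passage as a replicate block called 1 higher and 4 lower. The 2 that fell were Pdgfra, at -1.17 (limma adjusted p = 0.00368), and Acta2, at -0.66 (limma adjusted p = 0.0237). Pdgfrb, at -0.66, did not pass in its probe set of highest mean (limma adjusted p = 0.0723). Its other probe sets passed, at -1.09 and -0.68 (limma adjusted p = 0.00347 and 0.00578). Vim, the intermediate filament of mesenchymal cells, lay between 14.47 and 14.60 on the clone arrays, against 14.52 and 14.43 on the untransfected arrays. Col1a1 and Col1a2, the chains of type I collagen, did not pass the test, at -0.10 (SE 0.09, limma adjusted p = 0.542) and -0.04 (SE 0.08, limma adjusted p = 0.798). Des, the intermediate filament desmin, was at -0.09 (limma adjusted p = 0.781). Lrat, the enzyme that stores retinol as ester in resting stellate cells, was at the floor on all 8 arrays, and Gfap lay between 4.81 and 4.97 on the clone arrays, against 5.17 and 5.05 on the untransfected arrays.

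**Figure D2:**
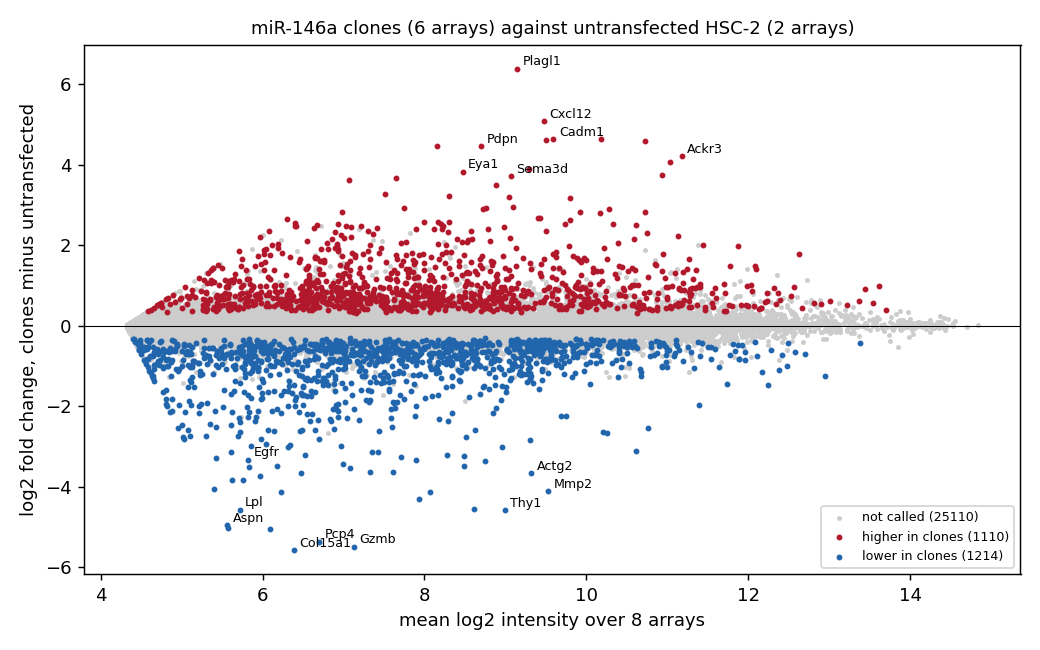
Log2 fold change (clones minus untransfected) of each of 27434 probe sets against its mean log2 intensity over the 8 arrays; red points were called higher in the clones (1110), blue points lower (1214) and grey points were not called by limma at adjusted p under 0.05. The slanting edges at the left mark the floor, and the named points include Plagl1 at 6.38 and Col15a1 at -5.58.

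Of 27434 probe sets tested with limma, 2324 differed between the clones and the untransfected line at adjusted p under 0.05, which is 8.47%. Of these, 1110 (4.05%) were higher and 1214 (4.43%) were lower in the clones, 355 at least doubled and 380 at most halved. Taking for each gene its probe set of highest mean level, 501 of 13249 genes were higher (3.78%) and 638 were lower (4.82%). These shares are the background for the counts that every gene list below has in this fit. This test used the spread between passages of a line. A second test took the 4 line means as replicates, 3 clones against 1 untransfected line, and called 3218 probe sets (11.7%), with 6.15% higher and 5.58% lower. By gene it called 6.05% higher and 6.22% lower, the background for line means in the lists. Both tests called 1523. In 7140 probe sets (26%) the 6 clone arrays all lay on one side of both untransfected arrays, and this held for 2294 of the 2324 called. The count depended on the untransfected arrays: 3685 were called without their passage 42 array and 712 without their passage 43 array. With passage as a replicate block the count was 4374, with 2167 higher and 2207 lower, so larger list counts under the block go with a larger total. List counts with the block, without single arrays or at an unadjusted p are given without a share over all genes.

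The genes with the largest rises in the clones encode a transcription factor, a chemokine with its scavenging receptor, and cell surface proteins. Plagl1, a zinc finger factor encoded by an imprinted gene, was at 10.21 and 11.12 in clone S1, at 10.76 and 11.24 in S4, and at 10.30 and 10.81 in S5, against 4.32 and 4.40 in untransfected cells. The clone arrays were all high and the untransfected arrays at or next to the floor, so its change of 6.38 (SE 0.26, limma adjusted p = 0.000147) leans on the floor. Cxcl12, the chemokine that attracts cells bearing Cxcr4, was at 10.96 and 11.76 in clone S1, at 9.23 and 10.62 in S4, and at 10.47 and 11.44 in S5, against 5.98 and 5.38 in untransfected cells. It rose 33.6-fold (log2 change 5.07, SE 0.44, limma adjusted p = 0.00146). Ackr3, the receptor that scavenges Cxcl12, lay between 11.80 and 12.67 on the clone arrays, against 8.98 and 7.07 on the untransfected arrays, and rose 18.4-fold (log2 change 4.20, SE 0.50, limma adjusted p = 0.00482). The chemokine and its scavenger were thus both higher in all 3 clones. In the scrambled line Cxcl12 stood at 8.68 and 8.63 and Ackr3 at 11.97 and 12.06, each above the untransfected arrays, with scrambled minus untransfected differences of 2.98 and 3.99 (limma adjusted p = 0.015 and 0.0082). That test between the lines without added miR-146a called 6.16% of probe sets, 2.24% higher and 3.92% lower in the scrambled line.

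Surface proteins formed the next group. Cadm1, an immunoglobulin-like adhesion molecule, lay between 10.53 and 10.87 on the clone arrays, against 6.71 and 5.54 on the untransfected arrays, and rose by 4.63 (SE 0.27, limma adjusted p = 0.000408). Pdpn, the mucin-like podoplanin of mesothelium and lymphatic endothelium, was at 10.25 and 10.42 in clone S1, at 10.14 and 10.32 in S4, and at 8.78 and 9.0 in S5, against 5.50 and 5.22 in untransfected cells. Clone S5 was the lowest of the clones, and still far above the untransfected line, for a change of 4.46 (SE 0.12, limma adjusted p = 3.06e-05). Ramp1, which with the calcitonin receptor-like receptor forms the CGRP receptor, rose by 2.83 (SE 0.37, limma adjusted p = 0.00743). Vnn1, a membrane-anchored pantetheinase, lay between 8.73 and 9.42 on the clone arrays, against 5.87 and 5.91 on the untransfected arrays, a rise of 3.22 (SE 0.20). The scrambled line was higher than the clones for Vnn1, at 10.37 and 10.17. Scrambled values of Cadm1 were 10.12 and 9.45.

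Secreted and intracellular regulators completed the rises. Pappa2, a metalloprotease acting on binding proteins of insulin-like growth factors, lay between 8.36 and 10.02 on the clone arrays, against 4.58 and 5.05 on the untransfected arrays, and rose 21.9-fold (log2 change 4.45, SE 0.39, limma adjusted p = 0.0015). Col14a1, a fibril-associated collagen, was at 11.48 and 11.98 in clone S1, at 7.19 and 8.94 in S4, and at 10.49 and 11.50 in S5, against 6.74 and 6.03 in untransfected cells. S4 was the lowest clone, and while Col14a1 passed on the spread between passages (log2 change 3.88, SE 0.49, limma adjusted p = 0.00607), it did not on line means (limma adjusted p = 0.203). Eya1, a coactivator of homeobox transcription factors, lay between 9.04 and 9.74 on the clone arrays, against 5.82 and 5.40 on the untransfected arrays, and rose by 3.82 (SE 0.13). Thrb, the thyroid hormone receptor beta, rose by 2.79 (SE 0.24), and Rgs2, which shortens G protein signalling, by 2.82 (SE 0.35). Fgf13, an intracellular fibroblast growth factor homologue, rose by 3.62 (SE 0.24) over untransfected arrays at 4.39 and at the floor. Further rises were those of Cobll1 at 3.66, Fam13a at 3.48, Anxa3, a calcium-dependent phospholipid-binding protein, at 2.82, Aass, an enzyme of lysine breakdown, at 2.96, and Pcsk6, a proprotein convertase, at 2.68. Among the 20 genes named for the largest rises, 17 kept their call without any 1 of the 8 arrays; the calls of Col14a1 and Ramp1 were lost without the untransfected array of passage 43, and that of Sema3e without either untransfected array.

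Col15a1, a collagen found beside basement membranes, was at 5.85 and 4.90 in clone S1, at 4.61 and 4.56 in S4, and at 5.19 and 4.85 in S5, against 10.43 and 10.72 in untransfected cells. It fell by 5.58 on the log2 scale (SE 0.24, limma adjusted p = 0.00015), with the clone arrays next to the floor, and the scrambled arrays stood at 10.89 and 11.30. Aspn, the small leucine-rich proteoglycan asporin, sat at the floor throughout the 6 clone arrays, against 8.92 and 9.64 on the untransfected arrays. Its level was at least 31.1-fold lower in the clones (limma adjusted p = 8.82e-05), and the scrambled arrays were at 4.80 and 8.11. Mmp2, the gelatinase that degrades basement membrane collagen, was at 7.58 and 8.20 in clone S1, at 7.49 and 8.78 in S4, and at 9.07 and 9.85 in S5, against 12.26 and 12.96 in untransfected cells. It fell by 4.11 on the log2 scale (SE 0.40, limma adjusted p = 0.0021).

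Thy1, a glycoprotein anchored on the surface of fibroblasts, was at 6.71 and 6.42 in clone S1, at 8.52 and 8.78 in S4, and at 8.64 and 7.99 in S5, against 12.38 and 12.49 in untransfected cells. S1 was the lowest clone. Thy1 fell by 4.59 on the spread between passages (SE 0.18, limma adjusted p = 0.00012), whereas line means gave a limma adjusted p of 0.0617. Lpl, the lipase that frees fatty acids from lipoproteins, lay between 4.48 and 4.73 on the clone arrays, against 8.51 and 9.78 on the untransfected arrays, and fell by 4.57 (SE 0.29, limma adjusted p = 0.000438). The scrambled line was as low for Lpl, at 4.57 and 4.97. Star, which carries cholesterol into mitochondria, fell by 3.34 (SE 0.21, limma adjusted p = 0.000433), and the scrambled arrays stood at 10.10 and 9.86, near the untransfected values of 10.03 and 10.76.

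Gzmb, the cytotoxic protease granzyme B, differed between passages within each clone. It was at 6.55, 7.15 and 6.81 at passage 42 and at 4.32, 4.83 and 4.85 at passage 43 in S1, S4 and S5, against 11.03 and 11.47 in untransfected cells. The fall of 5.50 carried a large error (SE 0.84, limma adjusted p = 0.0119), and its call was lost without either untransfected array. Pcp4, a regulator of calmodulin, fell by 5.37 (SE 0.16, limma adjusted p = 3.06e-05), with clone arrays between 4.85 and 6.09, against 10.52 and 10.94 on the untransfected arrays. Fgf9, a secreted fibroblast growth factor, lay between 4.32 and 5.31 on the clone arrays, against 8.39 and 11.35 on the untransfected arrays, which differed widely from each other. It fell by 5.05 (SE 0.66, limma adjusted p = 0.0072). Srgn, the proteoglycan of secretory granules, fell by 4.14 (SE 0.24), and Arhgap44 by 4.07 (SE 0.10), with the clone arrays of Arhgap44 at or near the floor.

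Further log2 fold changes were -3.64 for Cdh13, a lipid-anchored cadherin, -3.44 for Enpep, the aminopeptidase that cleaves angiotensin II, -3.30 for Olfm1, a secreted olfactomedin, -3.26 for Cryl1, -3.24 for Olfml2b, -3.23 for Ctnnd2, a delta-catenin, and -3.15 for Vstm4. Passing with the groups apart was a condition for being named among the 20 largest changes in either direction. The Enpep probe set of higher mean level passed in the opposite direction, at 0.52 (limma adjusted p = 0.0273), so the probe sets of Enpep disagree. Of the 20 genes named for the largest falls, 16 kept their call without any 1 array. Mmp2 and Enpep lost it without the untransfected array of passage 43, and Gzmb and Actg2 without either untransfected array. Line means called 19 of the 20 rises and 19 of the 20 falls. Scrambled minus untransfected was called on the same side for 10 of the 20 rises and 8 of the 20 falls. It was not called for 9 of the rises and 12 of the falls. Among those called were Col14a1, Aass, Rgs2, Gzmb, Arhgap44 and Enpep, with the scrambled arrays of Arhgap44 at 4.54 and 4.46. Over all probe sets that test called 2.24% higher and 3.92% lower, and it shares the untransfected arrays with the comparison.

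**Figure D3:**
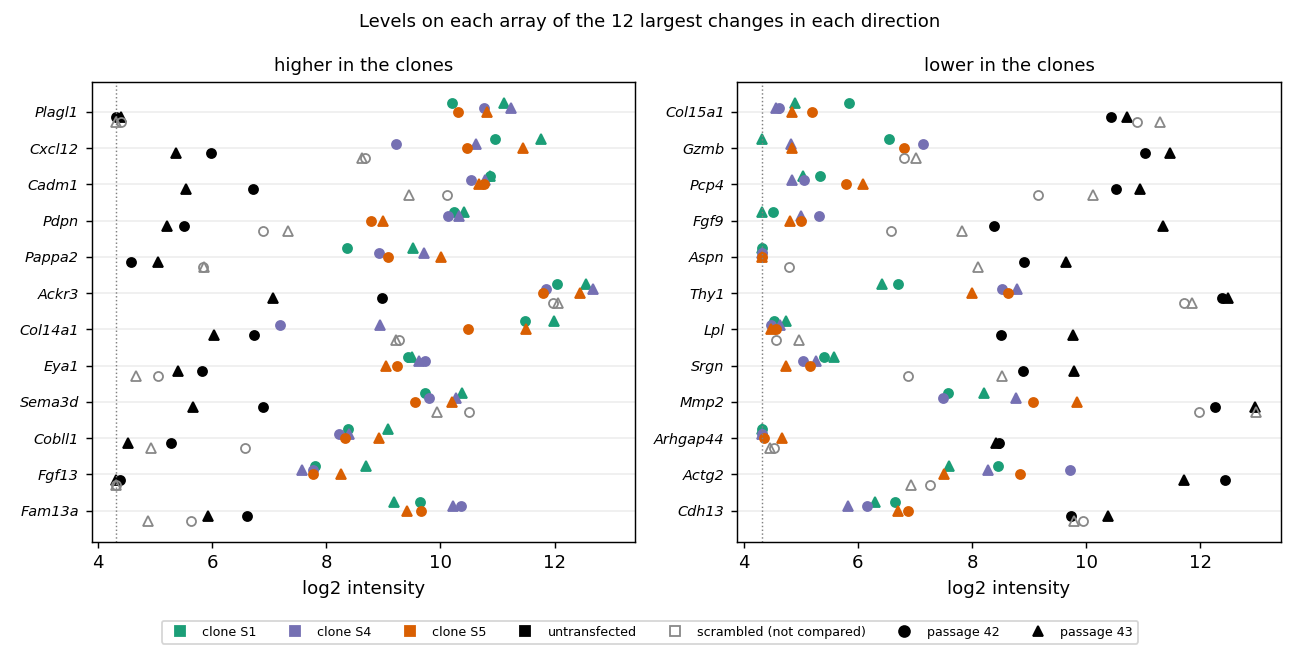
Log2 intensity on each array of the 12 genes with the largest rises (left panel) and the 12 with the largest falls (right panel) in the clones; colours mark the line, circles passage 42, triangles passage 43, and the dotted line the floor at 4.32. Open grey points are the scrambled arrays, which are not in the comparison and lie near the untransfected arrays for Plagl1 and Col15a1 and near the clone arrays for Ackr3 and Lpl.

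Contractile and cytoskeletal genes mark activated stellate cells. Of 32 tested, limma called 0 higher (2 at an unadjusted p under 0.05) and 9 lower, and 23 did not pass. The median log2 fold change was -0.23, with -0.02 over all genes tested. The median scrambled minus untransfected difference over the same list was -0.78, with 0.00064 over all genes tested. Actg2, the gamma actin of smooth muscle, was at 8.46 and 7.59 in clone S1, at 9.71 and 8.28 in S4, and at 8.85 and 7.51 in S5, against 12.43 and 11.71 in untransfected cells, a fall of 3.67 (SE 0.50, limma adjusted p = 0.00834). Mylk, the myosin light chain kinase, fell by 1.92 (SE 0.30) and Cnn1, the actin-binding calponin, by 1.79 (SE 0.41, limma adjusted p = 0.0434). Myocd, the coactivator of serum response factor in smooth muscle, lay between 4.65 and 4.89 on the clone arrays, against 6.50 and 5.68 on the untransfected arrays, and fell by 1.29 (SE 0.20). Acta2, the alpha smooth muscle actin that marks activated stellate cells, lay between 12.19 and 12.74 on the clone arrays, against 12.91 and 13.23 on the untransfected arrays. Its fall of 0.66 passed on the spread between passages (SE 0.12, limma adjusted p = 0.0237) and not on line means (limma adjusted p = 0.0764).

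Lmod1, a leiomodin that nucleates actin filaments, fell by 1.21, Myl9, a regulatory myosin light chain, by 1.04, Csrp1, a LIM protein of smooth muscle, by 0.73 and Mrtfa, an actin-sensing coactivator, by 0.41. The control chosen set the direction for several of these genes. Acta2 was at 10.13 and 10.22 in the scrambled line, Actg2 at 7.27 and 6.93 and Cnn1 at 5.81 and 5.31, all below every clone array, so the clones were higher than the scrambled line by 2.23, 1.30 and 2.00. The difference of 1.30 for Actg2 did not pass (limma adjusted p = 0.171). Scrambled minus untransfected was -2.89 for Acta2 (limma adjusted p = 0.00017). Line means called 1 contractile gene higher and 6 lower, and leaving out any 1 array left between 2 and 8 lower, with 5 without the untransfected array of passage 42 and 2 without that of passage 43.

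**Figure D4:**
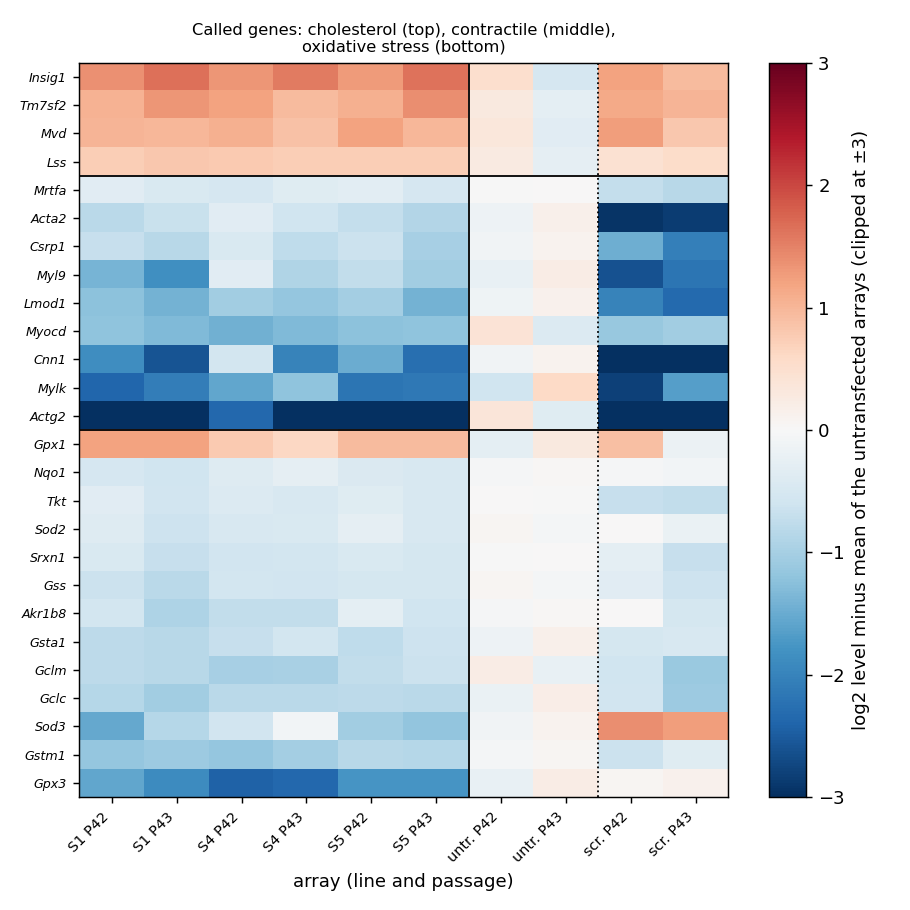
Log2 level on each array minus the mean of the untransfected arrays, for the called genes of the cholesterol (top), contractile (middle) and oxidative stress (bottom) lists; columns are the clone arrays, the untransfected arrays and, right of the dotted line, the scrambled arrays, with colours clipped at 3 in either direction. Insig1 is 1.47 above and Actg2 3.67 below the untransfected mean in the clones, and the scrambled arrays are lower still for Actg2, Acta2 and Cnn1.

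Among 50 collagens and structural matrix genes, 11 fell and only Col14a1 rose, with a median of -0.10, and passage as a replicate block gave 17 falls and 4 rises. The scrambled line lay further below the untransfected line, with a median scrambled minus untransfected difference of -0.60 over the list. Microfibrillar collagen VI fell in all its 3 chains tested: Col6a2 by 2.65, Col6a1 by 2.55 and Col6a3 by 1.47. Col6a2 lay between 9.11 and 10.11 on the clone arrays, against 11.86 and 12.53 on the untransfected arrays (SE 0.22, limma adjusted p = 0.00118). Col5a3, a chain of fibril-regulating collagen V, lay between 7.85 and 8.65 on the clone arrays, against 11.12 and 11.30 on the untransfected arrays, a log2 fold change of -3.01 (SE 0.25, limma adjusted p = 0.00134). Other falls were those of Fbn2, a fibrillin, by 2.38, Col18a1, the precursor of endostatin, by 1.24, Lama4, a laminin chain, by 1.14 and Col16a1 by 0.50. Postn, the matricellular protein periostin, was at 9.38 and 8.53 in clone S1, at 11.92 and 10.86 in S4, and at 9.65 and 8.63 in S5, against 12.65 and 13.25 in untransfected cells. Its fall of 3.12 (SE 0.41, limma adjusted p = 0.00687) did not pass on line means (limma adjusted p = 0.163), and the scrambled line was lower still, at 5.25 and 4.88. In their probe sets of highest mean, Col15a1 fell by 4.32 and Aspn was again at the floor in every clone. Leaving out any 1 array left between 6 and 10 of the matrix genes lower, with 6 without the untransfected array of passage 43.

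Collagen processing genes had 1 rise and 1 fall among 18, against 2 and 3 with passage as a replicate block. Lox, which crosslinks collagen, lay between 13.66 and 14.08 on the clone arrays, against 13.12 and 12.64 on the untransfected arrays, and rose by 0.98 (SE 0.17, limma adjusted p = 0.0169). Matrix proteases and their inhibitors had 4 rises and 3 falls among 32, against 8 and 4 with passage as a replicate block. Timp3, a matrix-bound inhibitor of metalloproteases, was at 11.43 and 11.93 in clone S1, at 10.43 and 10.64 in S4, and at 10.55 and 11.02 in S5, against 7.68 and 8.55 in untransfected cells. It rose by 2.88 (SE 0.26, limma adjusted p = 0.00161), and the scrambled line was lower than both, at 6.41 and 5.38. Adam10, the sheddase of Notch and other surface proteins, rose by 1.19 (SE 0.17), Adam9 by 0.76 (SE 0.13) and Plaur, the urokinase receptor, by 0.45 (SE 0.10). Plat, the tissue plasminogen activator, lay between 8.19 and 8.96 on the clone arrays, against 11.66 and 11.22 on the untransfected arrays, and fell by 2.85 (SE 0.13). Adamts4, an aggrecanase, fell by 2.07 (SE 0.11). Adamts4 did not pass on line means (limma adjusted p = 0.121). The calls of Timp3, Plat and Adamts4 held without any 1 array, while those of Adam10, Adam9 and Plaur were lost without either untransfected array.

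Genes of cholesterol synthesis and uptake lay on the high side in the clones. Their transcription is driven by SREBP2, which Insig1 holds in the endoplasmic reticulum when sterol is plentiful. Of 23 tested, 4 rose, 0 fell and 19 did not pass on the spread between passages. The median was 0.83, and 22 of the 23 values were above 0. Insig1 was at 12.04 and 12.33 in clone S1, at 12.01 and 12.23 in S4, and at 11.95 and 12.30 in S5, against 11.18 and 10.17 in untransfected cells, a rise of 1.47 (SE 0.26, limma adjusted p = 0.0197). The untransfected arrays differed from each other by more than the clone arrays did. Tm7sf2, a sterol reductase, rose by 1.16 (SE 0.18), Mvd, which makes isopentenyl diphosphate, by 1.03 (SE 0.18), and Lss, which cyclises squalene epoxide to lanosterol, by 0.76 (SE 0.14). Acly, which supplies cytosolic acetyl-CoA, rose by 0.89 (SE 0.21, limma adjusted p = 0.0455). On line means 17 of the 23 passed, all higher, and with passage as a replicate block 11. The count rose to 20 without the untransfected array of passage 42 and was 3 without that of passage 43, and leaving out a clone array left as few as 1. The scrambled line lay on the same side of the untransfected line, with a median scrambled minus untransfected difference of 0.93 over the list, and Mvd differed between the clones and the scrambled line by -0.0060.

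Promoter windows of Insig1 and Mvd are shown as examples of the 4 called cholesterol genes, which rose together. The windows run from 250 bases before to 50 after the gene start in RefSeq's GRCr8 annotation, 5′ to 3′ on the gene's strand. The motif searched was CCAAT on either strand, the NF-Y box that often stands beside SREBP sites, and matches are in capitals (ATTGG is its reverse complement). In the windows printed, no match of one motif overlaps a match of another. Insig1 (minus strand, chr4:8057720-8058019) holds 1 match and Mvd (minus strand, chr19:67414925-67415224) holds 2. A match was found in 4 of the 4 called genes, in 13 of 18 tested list genes with a window, and in 37.5% of 33469 promoters. It was also found in 16 of 26 tested contractile genes with a window (61.5%). A match describes letters in a window and not a binding site.
Insig1: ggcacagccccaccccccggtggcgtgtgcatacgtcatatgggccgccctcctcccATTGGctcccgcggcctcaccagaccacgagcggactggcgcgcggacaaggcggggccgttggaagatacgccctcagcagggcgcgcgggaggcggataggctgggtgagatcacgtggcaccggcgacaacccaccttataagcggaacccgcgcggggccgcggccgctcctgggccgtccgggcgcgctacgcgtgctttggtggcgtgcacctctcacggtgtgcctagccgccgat
Mvd: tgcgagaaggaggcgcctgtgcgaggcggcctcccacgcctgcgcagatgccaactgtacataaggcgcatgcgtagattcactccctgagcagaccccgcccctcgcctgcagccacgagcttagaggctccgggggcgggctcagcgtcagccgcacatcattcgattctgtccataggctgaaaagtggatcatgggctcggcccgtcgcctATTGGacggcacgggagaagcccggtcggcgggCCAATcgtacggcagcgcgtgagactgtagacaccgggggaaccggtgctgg

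Of 42 antioxidant and detoxification genes tested, 1 rose, 12 fell and 29 did not pass, with a median of -0.32 and 12 values above 0. With passage as a replicate block 3 rose and 18 fell. Gpx3, the secreted glutathione peroxidase, was at 11.31 and 10.98 in clone S1, at 10.43 and 10.50 in S4, and at 11.09 and 11.10 in S5, against 12.65 and 13.08 in untransfected cells, a fall of 1.97 (SE 0.14, limma adjusted p = 0.00068). Both subunits of the enzyme that starts glutathione synthesis fell, the catalytic Gclc by 0.85 (SE 0.12, limma adjusted p = 0.00847) and the modifier Gclm by 0.83 (SE 0.12, limma adjusted p = 0.0101). Gclc lay between 9.96 and 10.21 on the clone arrays, against 10.81 and 11.19 on the untransfected arrays. Gss, the next enzyme of that pathway, fell by 0.60. The glutathione transferases Gstm1 and Gsta1 fell by 1.02 and 0.71, the reductases Akr1b8 and Nqo1 by 0.65 and 0.44, Srxn1, which repairs peroxiredoxins, by 0.54, Tkt, of the pentose phosphate pathway, by 0.45, and the superoxide dismutases Sod3 and Sod2 by 0.88 and 0.46, with overlapping groups for Sod3. Gpx1, the cytosolic glutathione peroxidase, lay between 11.30 and 11.90 on the clone arrays, against 10.40 and 10.98 on the untransfected arrays, and rose by 0.96 (SE 0.15). Slc7a11, which imports cystine for glutathione, fell by 1.76 (SE 0.33, limma adjusted p = 0.024), and the scrambled arrays were at 8.43 and 7.69, beside clone arrays between 7.65 and 8.60. In intensity units, Gclm was at 778.69 and 542.4 in the scrambled line, beside 591.04 to 753.81 on the clone arrays. Gclc was at 1386.53 and 969.51, beside 997.19 to 1182.29. Gpx3, at 7739.77 and 8200.66 in the scrambled line, lay near the untransfected 6426.76 and 8677.08 instead. The median scrambled minus untransfected difference over the list was -0.07.

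Line means called 12 genes of this list lower and 3 higher, and leaving out any 1 array left between 5 and 11 lower, with 5 without the untransfected array of passage 43. The calls of Gpx3, Gstm1, Gclc and Gclm held in each of those omissions. The antioxidant response element, searched as TGACNNNGC on either strand, is the site of NRF2 and is shown in the Gclm window (plus strand, chr2:213031885-213032184, in capitals). It was found in 3 of the 12 called genes with a window (Gclm, Gsta1 and Sod2), in 7 of 34 tested list genes (20.6%) and in 12.1% of 33469 promoters. The share was 22.2% of tested cholesterol genes and 19.2% of tested contractile genes. The serum response element (CArG box) was found in 0 of 6 called contractile genes with a window, 3 of 26 tested and 1.64% of promoters.
Gclm: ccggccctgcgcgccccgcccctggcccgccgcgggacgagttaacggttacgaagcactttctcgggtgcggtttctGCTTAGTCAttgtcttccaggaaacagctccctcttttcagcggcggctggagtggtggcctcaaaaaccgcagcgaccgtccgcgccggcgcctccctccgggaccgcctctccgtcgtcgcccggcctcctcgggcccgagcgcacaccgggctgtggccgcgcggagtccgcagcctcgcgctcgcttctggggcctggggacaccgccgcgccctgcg

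Adhesion genes fell more often than they rose: 13 of 37 fell and 3 rose, with a median of -0.19. The median scrambled minus untransfected difference over this list was -0.29. Itga1, the alpha subunit of a collagen receptor, lay between 5.17 and 5.37 on the clone arrays, against 7.36 and 7.66 on the untransfected arrays, and fell by 2.26 (SE 0.11, limma adjusted p = 0.000268). Fap, a surface protease of activated fibroblasts, fell by 2.08 (SE 0.13), and Itgb3, the beta subunit of vitronectin receptors, by 2.01 (SE 0.25). The caveolins Cav2 and Cav1, which shape caveolae, fell by 1.13 and 0.82, and the integrin subunits Itga5, Itga9, Itga11 and Itgav by 0.94, 0.79, 0.74 and 0.50. Besides Pdpn, Alcam, an immunoglobulin-like adhesion molecule, lay between 10.35 and 11.49 on the clone arrays, against 9.37 and 9.77 on the untransfected arrays, and rose by 1.37 (SE 0.19), and the placental cadherin Cdh3 rose by 0.70 (SE 0.14). Itgb3 was higher in the scrambled line than on either side, at 8.95 and 9.18. Line means called 12 of the adhesion genes lower and 2 higher, and 6 were lower without the untransfected array of passage 43.

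Of 36 guidance genes (semaphorins, ephrins, netrins, slits and their receptors), 7 rose and 4 fell, with a median of 0.18. Class 3 semaphorins, secreted ligands of neuropilins and plexins, gave the largest rises. Sema3d was at 9.73 and 10.37 in clone S1, at 9.81 and 10.28 in S4, and at 9.56 and 10.20 in S5, against 6.90 and 5.66 in untransfected cells, a rise of 3.71 (SE 0.36, limma adjusted p = 0.00217). Sema3e lay between 8.17 and 10.27 on the clone arrays, against 6.52 and 6.63 on the untransfected arrays, and rose by 2.91 (SE 0.42, limma adjusted p = 0.00945). Sema3a lay between 7.55 and 7.92 on the clone arrays, against 5.37 and 5.12 on the untransfected arrays, and rose by 2.46 (SE 0.14, limma adjusted p = 0.000358). In the scrambled line Sema3d was at 10.49 and 9.93 and Sema3a at 7.83 and 7.37, near the clones, while Sema3e was at 6.55 and 6.79, near the untransfected line. Slit3, a ligand of Robo receptors, rose by 1.20, and the ephrin receptors Epha7 and Epha2 by 1.11 and 0.92. The plexin Plxnd1 fell by 0.83 (SE 0.10), Sema6a by 0.74, Slit2 by 0.55 and Dcc, a netrin receptor, by 0.33. The other probe sets of Sema6a did not pass, at -0.03 to -0.28. Leaving out any 1 array left 4 to 6 of the guidance genes higher and 1 to 3 lower.

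Developmental transcription factors had 8 rises and 5 falls among 51. Besides Plagl1, Eya1 and Thrb, the rises were those of Foxa2, a forkhead factor of endoderm, by 2.62, the zinc finger factors Gata4 by 2.11 and Gata6 by 1.06, Wt1, a factor of mesothelium, by 1.16, and Hoxb7 by 0.33. Foxa2 was at 10.53 and 10.84 in clone S1, at 9.43 and 10.60 in S4 and at 10.31 or higher in S5, against 8.40 and 7.26 in untransfected cells (SE 0.40, limma adjusted p = 0.0122). Gata4 lay between 6.26 and 7.51 on the clone arrays, against 5.41 and 4.53 on the untransfected arrays (SE 0.36, limma adjusted p = 0.018). Factors of mesenchymal transition were among the falls. Snai1 lay between 7.99 and 8.36 on the clone arrays, against 9.50 and 9.13 on the untransfected arrays, and fell by 1.16 (SE 0.13, limma adjusted p = 0.00407). Twist1 fell by 0.84 (SE 0.08), Zeb2 by 0.84 (SE 0.17), Twist2 by 0.60 (SE 0.11) and Dlx5 by 0.53 (SE 0.12). With Snai1 these were all 5 falls, and no other tested factor of mesenchymal transition in the list was called lower. Another probe set of Twist1 did not pass, at -0.42 (limma adjusted p = 0.162). Other probe sets of Zeb2 at -0.10, -0.72 and -0.641 did not pass, while that at -0.636 did (limma adjusted p = 0.00793). The calls of Snai1 and Twist1 held without any 1 array. Foxa2 lost its call without the untransfected array of passage 43 or the S1 array of passage 43, and Zeb2 lost it without either untransfected array, among others.

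**Figure D5:**
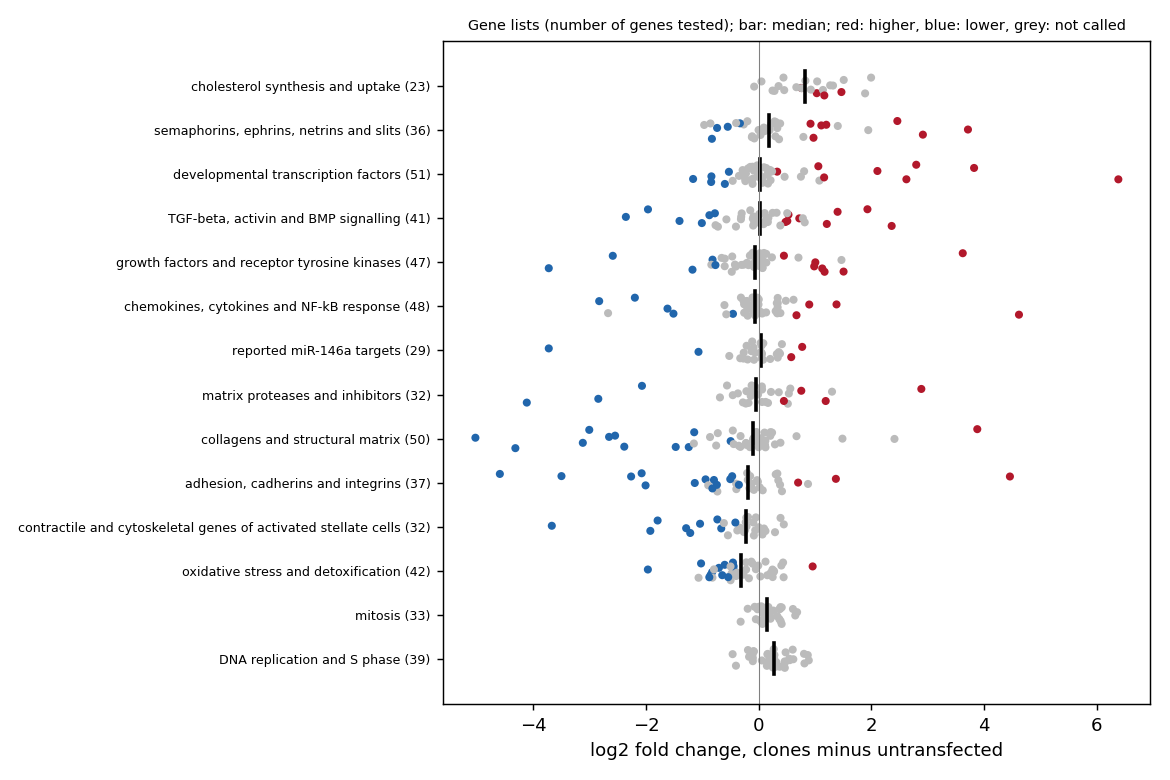
Log2 fold change (clones minus untransfected) of each tested gene in 14 of the 31 lists, with the number of genes tested beside each name; red points rose, blue points fell, grey points did not pass, and black bars are medians. The cholesterol list has the highest median, 0.83, and the oxidative stress list the lowest, -0.32.

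TGF-beta is a strong fibrogenic signal to stellate cells and BMP signalling often opposes it. In this family 8 of 41 genes rose and 6 fell, with a median of 0.02. Bmp4, a BMP ligand, was at 9.04 and 9.40 in clone S1, at 8.69 and 9.44 in S4, and at 9.02 and 9.37 in S5, against 6.66 and 6.94 in untransfected cells, a rise of 2.36 (SE 0.22, limma adjusted p = 0.00187). Chrd, the BMP antagonist chordin, rose by 1.93 (SE 0.30), and Inhbb, the beta B subunit of activin, by 1.40 (SE 0.27). The call of Inhbb was lost whichever array was left out. The antagonist Grem1, in contrast, lay between 5.43 and 6.87 on the clone arrays, against 7.81 and 9.10 on the untransfected arrays, and fell by 2.36 (SE 0.44, limma adjusted p = 0.0227). Gdf15, a stress-induced ligand, fell by 1.96 (SE 0.35), Bmp2 by 1.40 (SE 0.21) and Tgfb3 by 1.01 (SE 0.16). Of the receptors, Acvr2a and Tgfbr1 fell by 0.87 and 0.78 and Bmpr1a rose by 0.48. The target Id1 rose by 1.21 (SE 0.24, limma adjusted p = 0.0299), and the inhibitory Smads Smad7 and Smad6 rose by 0.72 (SE 0.11) and 0.53. Fstl1, a follistatin-like protein, rose by 0.51. Bmp4 kept its call without any 1 array, and without the untransfected array of passage 43 the family had 1 gene higher and 2 lower.

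In Wnt signalling 2 of 33 genes rose and 4 fell, with a median of -0.02. The receptors Fzd6 and Lgr4 rose by 1.58 (SE 0.31) and 1.45 (SE 0.17). Tcf7 and Lef1, the transcription factors at the end of the pathway, fell by 1.73 (SE 0.10, limma adjusted p = 0.000352) and 0.92 (SE 0.16). Tcf7 lay between 6.75 and 7.77 on the clone arrays, against 9.0 on both untransfected arrays. The receptor Fzd8 fell by 0.76 and Nkd1, a feedback inhibitor, by 0.57. Fzd8 was at 5.96 and 6.35 in the scrambled line, below every clone array. The calls of Tcf7 and Lgr4 held without any 1 array, and that of Fzd8 was lost without either untransfected array. Tcf7 did not pass on line means (limma adjusted p = 0.0632).

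Of 47 growth factors and receptor tyrosine kinases, 7 rose and 5 fell, against 9 and 12 with passage as a replicate block. Egfr, the epidermal growth factor receptor, was at 4.71 and 4.68 in clone S1, at 5.19 and 5.13 in S4, and at 5.34 and 4.87 in S5, against 8.30 and 8.34 in untransfected cells. It fell by 3.34 (SE 0.13, limma adjusted p = 0.00011), and a second probe set fell by 3.72 (SE 0.21). The scrambled arrays were both at 5.65, for a scrambled minus untransfected difference of -2.68 (limma adjusted p = 0.00018). Areg, a ligand of Egfr, lay between 4.32 and 4.49 on the clone arrays, against 5.08 and 5.31 on the untransfected arrays, and fell by 0.82 (SE 0.09). Pdgfra, a receptor of platelet-derived growth factors, fell by 1.17 (SE 0.13, limma adjusted p = 0.00368), while its ligand Pdgfc rose by 0.98 and Pdgfd, a ligand of Pdgfrb, by 0.45. Pdgfrb itself, the receptor that drives proliferation of stellate cells, was at -0.66 in its probe set of highest mean and did not pass there (SE 0.18, limma adjusted p = 0.0723), whereas with passage as a replicate block it passed (limma adjusted p = 0.025). Its other probe sets passed, with falls of 1.09 and 0.68 (limma adjusted p = 0.00347 and 0.00578). Kitlg, the ligand of Kit, fell by 0.77 in its probe set of highest mean, and its others did not pass, at 0.17, 0.0048 and -0.32.

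Gas6, the ligand of the receptor Axl, was at 10.96 and 11.12 in clone S1, at 11.61 and 11.46 in S4, and at 11.10 and 11.15 in S5, against 9.81 and 9.65 in untransfected cells, a rise of 1.51 (SE 0.09, limma adjusted p = 0.000429). Met, the hepatocyte growth factor receptor, rose by 1.17 (SE 0.15), Fgf1 by 1.13 (SE 0.18) and Nrg1, a ligand of ErbB receptors, by 1.0 (SE 0.17). Several of the 8 probe sets of Nrg1 did not pass, at -0.05 to 0.19. Gas6 has a pair of further probe sets that did not pass, at 0.41 (limma adjusted p = 0.52) and -0.02 (limma adjusted p = 0.947). Gas6, Egfr, Pdgfra and Areg kept their calls without any 1 array, but Pdgfra did not pass on line means (limma adjusted p = 0.125). Met and Nrg1 lost theirs without the untransfected array of passage 43.

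The messenger RNA of a direct target can be lower where the microRNA is higher, though a target repressed only in translation need not change. Reported targets of miR-146a, gathered from knowledge of human and mouse studies, were therefore examined as a group. Of 29 tested, 2 rose and 2 fell, with a median of 0.04, and 16 values lay above 0. With passage as a replicate block 3 rose and 4 fell, and line means called 1 higher and 1 lower. Irak1, which relays the signal of interleukin-1 receptors, lay between 10.79 and 11.01 on the clone arrays, against 10.86 and 10.82 on the untransfected arrays, and was at 0.05 (SE 0.08, limma adjusted p = 0.766). Traf6, the ubiquitin ligase downstream of it, lay between 7.91 and 8.22 on the clone arrays, against 8.41 and 8.42 on the untransfected arrays. The groups were apart for Traf6, but its -0.33 did not pass (SE 0.09, limma adjusted p = 0.0691), whereas with passage as a replicate block it passed (limma adjusted p = 0.0334). Its other probe sets were also below 0 and did not pass, at -0.44, -0.49 and -0.19 (limma adjusted p = 0.158, 0.0564 and 0.192). In intensity units, Traf6 was at 315.53 and 367.26 on the scrambled arrays, above the clone arrays at 240.71 to 297.46. Smad4, which joins the Smads that receptors activate, was at -0.09 (SE 0.08, limma adjusted p = 0.55), with overlapping groups. Egfr and Notch1 fell, the second by 1.07 (SE 0.15, limma adjusted p = 0.00834) with clone arrays between 5.64 and 6.65, against 7.51 and 7.07 on the untransfected arrays, and it did not pass on line means (limma adjusted p = 0.13). Notch1 was at 5.88 and 5.73 in the scrambled line. Numb, an inhibitor of Notch, rose by 0.58 (SE 0.08) and the receptor Notch2 by 0.77 (SE 0.15). Levels of protein were not analysed here.

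In the list of chemokines, cytokines and NF-kB response genes, 4 of 48 rose and 5 fell, with a median of -0.07. Il6, an inflammatory cytokine, was at 6.14 and 4.34 in clone S1, at 5.33 and 4.61 in S4, and at 6.10 and 5.12 in S5, against 8.10 and 8.11 in untransfected cells, a fall of 2.83 (SE 0.48, limma adjusted p = 0.0174). The scrambled line was as low for Il6, at 4.80 and 4.87. Il1rap, the coreceptor of interleukin-1, fell by 2.20 (SE 0.42), and the monocyte chemoattractants Ccl7 and Ccl2 fell by 1.62 (SE 0.23) and 1.51 (SE 0.33). Ccl2 lay between 5.75 and 6.44 on the clone arrays, against 8.33 and 6.95 on the untransfected arrays. Cxcl1, a neutrophil chemoattractant, lay between 8.97 and 9.75 on the clone arrays, against 8.12 and 7.89 on the untransfected arrays, and rose by 1.38 (SE 0.13, limma adjusted p = 0.0022). The receptor Tlr4 rose by 0.90 (SE 0.11) and Tnfaip3, a feedback inhibitor of NF-kB, by 0.67 (SE 0.12). Tnfaip3 was at 0.51 in S1, 1.22 in S4 and 0.28 in S5, did not pass on line means (limma adjusted p = 0.345) and lost its call in 7 of the 8 omissions of 1 array. A second probe set of Cxcl12 rose by 4.62. Cxcl1 kept its call without any 1 array. Il6 lost it without either untransfected array, and 1 gene of the list was lower without that of passage 43.

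Interferon and antigen presentation genes had 1 rise and 2 falls among 34, and 3 rises and 4 falls with passage as a replicate block. Irf7, a factor of the interferon response, rose by 0.80 (SE 0.16), Mx2, an antiviral GTPase, fell by 1.07 (SE 0.16) with clone arrays between 4.32 and 4.54, and Tap2, a peptide transporter, fell by 0.66 (SE 0.10). Of 33 mitosis genes limma called 0 on the spread between passages, and 0 at an unadjusted p under 0.05, with a median of 0.14. Of 39 S phase genes it called 0, and 1 at an unadjusted p under 0.05, with a median of 0.27. The replicate block called 1 mitosis gene higher and 1 lower, and 4 S phase genes higher and 1 lower. Line means called 6 mitosis genes and 8 S phase genes higher, and 1 S phase gene lower. The list of p53 targets and Cdk inhibitors also holds D-type cyclins and had 25 genes tested. Its cyclin Ccnd2 fell by 2.37 (SE 0.13), with clone arrays at 6.71 and 6.43 in clone S1, at 5.15 and 5.44 in S4, and at 6.98 and 6.82 in S5, against 8.51 and 8.73 in untransfected cells. Gadd45g, a stress-induced growth arrest gene, fell by 1.30 (SE 0.22), and Cdkn2c, an inhibitor of Cdk4 and Cdk6, rose by 0.66 (SE 0.15). The call of Cdkn2c was lost whichever array was left out.

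Of 38 endoplasmic reticulum and amino acid stress genes limma called 0 higher (3 at an unadjusted p under 0.05) and 4 lower, and of 33 hypoxia and glycolysis genes 0 higher (2 at an unadjusted p under 0.05) and 5 lower. Atf3, a stress-induced transcription factor, lay between 5.95 and 6.76 on the clone arrays, against 7.76 and 9.17 on the untransfected arrays, and fell by 2.07 (SE 0.37, limma adjusted p = 0.0202). Egln3, a prolyl hydroxylase induced by hypoxia, was at the floor on 5 clone arrays and at 4.47 on the other, against 6.47 and 6.48 on the untransfected arrays, and fell by 2.13 (SE 0.08, limma adjusted p = 0.000101). Both scrambled arrays were at the floor too. Adm, the vasodilator adrenomedullin, fell by 1.84 (SE 0.26), Eno2, a glycolytic enolase, by 0.75, Bnip3, a mitophagy receptor, by 0.68 and Pdk1, which restrains pyruvate dehydrogenase, by 0.45. Another probe set of Pdk1 did not pass, at 0.13. Cebpg and Vldlr fell by 0.65 and 0.40. Egln3 kept its call without any 1 array, and without the untransfected array of passage 43 the stress list had 0 genes lower and the hypoxia list 1. Without that of passage 42, the stress list had 6 genes higher and 7 lower, and the hypoxia list 2 higher and 6 lower. Line means called 2 hypoxia genes higher and 6 lower, and passage as a replicate block 1 higher and 8 lower. The median was 0.08 for the stress list and -0.04 for the hypoxia list.

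Among 31 immediate early genes, Klf4, a Krüppel-like factor, rose by 1.42 (SE 0.20), and Atf3, Dusp5 and Ier3 fell, the last pair by 0.87 and 0.64. Klf4 lay between 10.37 and 11.40 on the clone arrays, against 9.72 and 9.29 on the untransfected arrays, with the scrambled arrays at 12.03 and 11.01. Of 44 respiratory chain genes, Ndufb8 and Ndufv2, subunits of complex I, fell by 0.62, with overlapping groups, and by 0.46. In lipid handling 1 of 34 genes rose and 3 fell, against 3 and 5 with the replicate block; besides Lpl these falls were those of Plin2, a coat protein of lipid droplets, by 1.74 (SE 0.11, limma adjusted p = 0.000433) and Me1, the cytosolic malic enzyme, by 0.54. Plin2 lay between 5.94 and 6.23 on the clone arrays, against 7.77 and 7.94 on the untransfected arrays, and at 8.54 and 8.69 on the scrambled arrays. Of 27 genes of resting stellate cells and retinoid handling, Gata4 and Aldh1a3, a retinaldehyde dehydrogenase, rose; Aldh1a3 was at the floor on both untransfected arrays and at least 2.84-fold higher in the clones (limma adjusted p = 0.00369). The replicate block gave 3 rises and 1 fall in that list.

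Calcium and potassium channels had 6 falls and 1 rise among 34. Trpv2, a cation channel, lay between 5.95 and 6.40 on the clone arrays, against 7.50 and 7.79 on the untransfected arrays, and fell by 1.52 (SE 0.13, limma adjusted p = 0.00142). Slc8a1, the sodium-calcium exchanger, fell by 1.39 (SE 0.33), Ano1, a calcium-activated chloride channel, by 1.37 (SE 0.29), Cacna1c, the pore of the L-type calcium channel, by 1.36 (SE 0.16), Kcnj8, of ATP-sensitive potassium channels, by 1.12 (SE 0.22) and Atp2b4, a plasma membrane calcium pump, by 0.52. Trpv2 and Cacna1c kept their calls without any 1 array, while Slc8a1, Ano1 and Kcnj8 lost theirs without either untransfected array. Another probe set of Slc8a1 did not pass, at 0.14. Kcnd3 rose by 0.97 (SE 0.16) with overlapping groups, since S4 stood at 6.22 and 6.52, against 6.46 and 5.93 in untransfected cells.

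Markers of other liver cells were read beside these results. Limma called 0 of 15 macrophage and leukocyte markers (0 at an unadjusted p under 0.05) and 0 of 13 endothelial markers (1 at an unadjusted p under 0.05), and line means called 0 of either. The defining markers Cd163, Adgre1, Lyve1 and Nos3 were at the floor on all arrays. Summed over the list, macrophage markers gave 1371 to 1572 intensity units on the clone arrays, against 1332 to 1497 on the untransfected arrays, and endothelial markers 917 to 967, against 904 to 1053. Of 17 hepatocyte markers 2 rose, Apoc3 by 0.79 (SE 0.13) and Fgg by 0.76 (SE 0.12), with sums of 868 to 903 on the clone arrays, against 782 to 844 on the untransfected arrays, and with Pck1 and Cps1 at the floor. Fgg was at the floor on both untransfected arrays, and at the floor and at 4.39 in clone S1, so its fold is no bound. Of 8 bile duct markers Krt8, a simple keratin, rose by 1.44 (SE 0.34, limma adjusted p = 0.04999), and line means called 0. Krt8 lost its call whichever array was left out. Epcam, Cldn4 and Cdh1 were at the floor, and sums were 1872 to 5306 on the clone arrays, against 2874 to 3534 on the untransfected arrays. Of 13 portal fibroblast and mesothelial markers 4 rose, Pdpn, Gpm6a by 1.33 (SE 0.20), Lrrn4 by 1.26 (SE 0.13) and Wt1 by 1.16 (SE 0.16), while Thy1 fell. Their sum was 8589 to 12107 on the clone arrays, against 14836 to 16714 on the untransfected arrays, and only Ptgds was at the floor. Wt1 lay between 9.70 and 10.27 on the clone arrays, against 8.81 and 8.70 on the untransfected arrays. Fewer cells of a type and less RNA per cell cannot be told apart in these bulk samples, and the part of cell composition in the results was not tested.

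Each clone was also set against the untransfected line alone. The 3 contrasts share the untransfected arrays, so no overlap between them is given. S1 had 1272 called probe sets (4.64%), 596 higher (2.17%) and 676 lower (2.46%). S4 had 994 (3.62%), 506 higher (1.84%) and 488 lower (1.78%), and S5 had 1043 (3.8%), 480 higher (1.75%) and 563 lower (2.05%). For Cxcl12 the change was between 4.25 in S4 and 5.68 in S1, and for Thy1 between -5.87 in S1 and -3.78 in S4. A replicate block for passage gave 2777 calls for S1, 2151 for S4 and 2486 for S5.

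The size of the change differed between clones for 7 of 27434 probe sets by limma's F test (0.0255%). Eif2s3y, a translation factor gene on the Y chromosome, was at 10.33 and 10.42 in clone S1, at 10.44 and 10.43 in S4, and at the floor on both S5 arrays, against 10.72 and 10.11 in untransfected cells. Igf2bp3, an RNA-binding protein of embryonic tissues, was at 7.79 and 7.73 in clone S1, at 5.10 and 4.68 in S4, and at 5.36 and 5.35 in S5, against 7.91 and 8.06 in untransfected cells. S1 thus stayed near the untransfected level while S4 and S5 lay below it. Abo3 was at the floor in S1, at 6.05 and 5.74 in S4 and at 7.11 and 6.92 in S5, against the floor on both untransfected arrays. The calls of the clones together for these genes describe an average over clones that were unlike each other.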

How the data were processed

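Total RNA of HSC-2 lines was labelled with biotin by the one-cycle Affymetrix protocol, per the labels. The table deposited by the authors holds linear intensities with a floor of 20. The submitters' processing notes name RMA, and no version or setting of it was found in the labels. log2 of the deposited intensities was taken. Tests covered 27434 of 31099 probe sets, without the 57 array controls and the 3608 that sat at the floor throughout the 8 arrays. Of the table's values, 14.6% were at the floor. The number of arrays limits the precision.

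Tests used limma 3.58.1 in R 4.3.3 (lmFit, eBayes, Benjamini-Hochberg over all probe sets, adjusted p under 0.05). The first fit had 1 coefficient per line on 8 arrays (4 residual degrees of freedom, the spread between passages), the second the 4 line means (2 residual degrees of freedom, the lone untransfected line assumed to vary like the clones). The fit of the scrambled line used 10 arrays. The scripts were tested on simulated data. With line differences drawn from the spread of the clone means, the first fit made 145 false calls among 286, and line means 0 among 71. Without line differences these were 3 among 134 and 2 among 100. SD and SE are on the log2 scale.

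Gene names came from the platform annotation: of those tested, 19148 carried a single symbol (13249 genes), 7887 none and 399 more than 1; 19088 matched the GRCr8 gene table, which changed 0 symbols. List members used the probe set with the highest mean, and genes named by their change the one with the smallest p. Named were the 20 largest called changes in each direction with the groups apart, up to 5 called genes per list and direction, Irak1, Traf6, Smad4, 8 stellate cell markers and up to 8 genes by range between clones. Other called list members and the sums of markers were added after their values were seen. The members, the 31 lists and the tests were chosen with earlier results of these data known. Passage numbers pair the samples: the deviations of same-numbered arrays correlated in all 6 pairs of lines, from 0.262 to 0.648. The first fit had no passage term.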

Additional observations from a re-analysis of the deposited data

Results flagged for a closer look

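The change against the untransfected line differed between clones by limma's F test for 5 genes with a single symbol. Eif2s3y had a range of 6.11 log2 units between clones, at -6.09 in S5, -0.04 in S1 and 0.02 in S4 (limma F test adjusted p = 0.000292). Igf2bp3 had a range of 2.87, at -0.22 in S1, -3.10 in S4 and -2.63 in S5 (limma F test adjusted p = 0.00464). Abo3 had a range of 2.69, with S1 at the floor (limma F test adjusted p = 0.00464). Nxf7 had a range of 2.09, at 2.04 in S4 against 0.05 in S1 and -0.05 in S5 (limma F test adjusted p = 0.0348), and stood higher in the scrambled line, at 7.76 and 9.36. Elavl2 had a range of 1.61, with S4 at 5.91 and 5.95 and the other lines at the floor (limma F test adjusted p = 0.00464). The groups of passages within a line hold 2 arrays each, too few to look for single outlying arrays.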

How the results depend on the processing

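The count of 2324 called probe sets was 4374 with passage as a replicate block, 65 at passage 42 alone and 4198 at passage 43 alone, 1249 with probe sets at the floor kept, and 6956 with line as a random block (estimated correlation -0.35). Single arrays left out gave 712 to 3685 and single clones left out 924 to 1122. It was 2394 after quantile normalization, 2417 after median centring and 2057 at a mean log2 level of at least 6. The line means' 3218 became 0 without S1 or S5 and 1240 without S4. Counts for S1, S4 and S5 with passage as a replicate block were 2777, 2151 and 2486, and single arrays left out gave 191 to 2549, 176 to 2102 and 154 to 2386. The 7 differences between clones became 34 with the block and 0 to 3 with single arrays left out. Scrambled minus untransfected, 1689 probe sets, gave 3627 with the block and 610 to 3233 with single arrays left out. The spike-in difference of -1.88 ranged from -2.19 to -1.58. Of the 166 named genes that passed, passage as a replicate block changed the call of none, line as a random block ended 12, line means called 119, and 71 kept their call without any 1 array (17 of the 20 largest rises, 16 of the 20 largest falls and 38 of the 126 others). With the scrambled line in place of the untransfected one, these called genes took the opposite sign, on the log2 scale of clones minus scrambled: Sema3d -0.22, Vnn1 -1.15, Actg2 1.30, Olfml2b 0.30, Mylk 0.30, Cnn1 2.00, Lmod1 0.95, Postn 4.76, Plaur -0.28, Mvd -0.0060, Inhbb -1.23, Grem1 0.043, Gdf15 0.17, Tgfb3 1.51, Lgr4 -0.43, Fzd8 1.89, Areg 0.052, Tlr4 -0.49, Il6 0.44, Notch1 0.42, Irf7 -0.70, Tap2 0.41, Cdkn2c -0.13, Atf3 0.29, Slc7a11 0.054, Vldlr 1.44, Egln3 0.024, Pdk1 0.24, Ndufv2 0.21, Gclm 0.029, Klf4 -0.60, Ier3 0.38, Slit2 0.10, Ano1 0.61, Cacna1c 0.34, Lrrn4 -0.10, Acta2 2.23 and Nxf7 -3.40. Against the scrambled line, 67 of the 166 kept their call, 61 lost it and these 38 took the opposite sign. Elavl2 was at 0 without clone S4 and at up to 0.80 without another clone. Plaur, Inhbb, Sod2, Cdkn2c, Eno2, Ier3, Slc8a1 and Krt8 lost their call whichever array was left out. The causes were not tested. Levels near the floor limit folds to lower bounds.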
